A study of Mus musculus with 9 samples.

Results

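Osteogenic medium was compared with proliferation medium in mouse bone marrow stromal cells, the adherent marrow cells that can form bone, cartilage and fat. The members are all genes with at least 1 FPKM (fragments per kilobase, a count scaled to gene length and library size) in at least 3 of the 9 libraries of the study, which 13049 of 31405 listed entries met. They are described above all outside 4 gene sets, for glucocorticoid targets, the Wnt pathway, the extracellular matrix and the cell cycle, by 4 roles: transcription factors, receptors, secreted proteins and transporters. Circular RNAs (circRNAs), which are closed by joining the end of an exon back to the start of the same or an upstream exon, were compared in the same libraries, and 2898 of 6614 were listed in at least 3 libraries.

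The proliferation medium (PM) was DMEM with 10% fetal bovine serum. The osteogenic medium (OM) had the same base and serum with 100 nM dexamethasone, a synthetic glucocorticoid, 0.2 mM ascorbic acid and 10 mM β-glycerophosphate. The cells were first-passage mouse cells bought from a supplier, and total RNA was taken after 7 days, with 3 libraries in each group. A further 3 libraries, grown in OM with dicalcium silicate (C2S), count towards the filter on low values and the shared estimate of spread, and are compared with nothing here. The 3 agents were added together, so their effects cannot be told apart. Nothing in the labels tells if replicate libraries stem from different cultures, and every p-value therefore reflects only how these libraries varied, which may be technical. Levels written "from x to y" run from the PM mean to the OM mean (± SD, n = 3).

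In stromal cells, the dexamethasone of osteogenic medium binds the glucocorticoid receptor, a nuclear receptor that switches genes on and off, while ascorbate serves collagen maturation and β-glycerophosphate supplies phosphate for mineral. Transcription factors set which lineage genes a stromal cell can use, receptors and secreted proteins set which signals it receives and sends, and transporters and channels set its ion, metal and nutrient traffic. A gene that makes a linear mRNA can also make circRNAs from its inner exons, which lack free ends and are slowly degraded.

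The linear libraries held from about 29576000 to 38756000 reads, and the small nuclear RNA Rn7sk took 28.8% to 36.1% of the values. The circRNA libraries held 13691, 14591 and 16123 back-splice reads in PM and 20769, 19123 and 19626 in OM. A listed circRNA had a median of 3 reads in every library, so its precision was set by few counts. Of 15 stromal markers, 13 were tested, 1 rose and 10 fell, and the summed level of the list was 2468 to 2526 FPKM in PM and 1760 to 1892 in OM. Of 11 macrophage markers in the tables, 3 passed the filter, and their list summed to 17.8 to 20.1 FPKM in PM and 26.7 to 32.3 in OM, most of it Cd14. The macrophage genes Adgre1, Ptprc and C1qa lay at or near 0 in every library. The contractile smooth muscle markers Acta2, Tagln, Myl9 and Cnn1 fell, and that list summed to 809 to 846 FPKM in PM and 387 to 422 in OM.

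The 4 genes that mark the comparison separated the media by a wide margin. Fkbp5, a co-chaperone of the glucocorticoid receptor, was at 7.22, 7.31 and 6.77 FPKM in the PM libraries and 211, 217 and 226 in the OM libraries. Tsc22d3, a glucocorticoid-induced leucine zipper protein, was at 22.1, 22 and 25.3 FPKM in the PM libraries and 529, 509 and 489.7 in the OM libraries. Both were higher in all OM libraries than in any PM library, and 58.5% of all tested genes had groups that did not overlap, in one direction or the other. Dkk2, a secreted Wnt antagonist, was at 126, 141 and 145 FPKM in the PM libraries and 9.78, 9.34 and 8.99 in the OM libraries, and Igf1, insulin-like growth factor 1, at 15.8, 17.2 and 17.9 FPKM in the PM libraries and 0.818, 0.83 and 0.749 in the OM libraries, with no overlap either. On the log2(FPKM + 1) scale used for every test below, the changes were 4.76 ± 0.043, 4.40 ± 0.059, -3.73 ± 0.062 and -3.32 ± 0.065 (± standard error, limma across all tested genes), with adjusted p-values of 2.87e-11, 1.49e-10, 4.53e-10 and 9.95e-10.

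Many genes passed the test, most of them with small changes. Of the 13049 genes, 7151 passed an adjusted p of 0.05, which is 54.8%, with 27.1% higher and 27.7% lower in OM. The median change of the called genes was 0.389 in size on the log2 scale, and only 445 higher and 331 lower genes reached 2-fold on that scale. Outside the 4 sets, 353 rose and 281 fell by 2-fold or more, and 140 of these had one of the 4 roles. Since a call is common here, the counts of each family are read against 54.8%.

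Receptors and secreted proteins were called more often than the background. Of 238 receptors, 62 rose and 122 fell, so 77.3% were called, and of 199 secreted proteins 68 rose and 88 fell (78.4%). Among 317 transcription factors 70 rose and 124 fell (61.2%), and among 320 transporters and channels 100 rose and 107 fell (64.7%). Genes with no assigned role outside the sets were called in 52.5% of cases, and protein-coding genes of all kinds in 59.2%. The median change was -0.25 for receptors, -0.12 for secreted proteins, -0.11 for transcription factors and -0.02 for transporters, beside 0.003 for all tested genes. In bulk RNA, fewer cells of a type and less RNA per cell cannot be told apart.

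**Figure D1:**
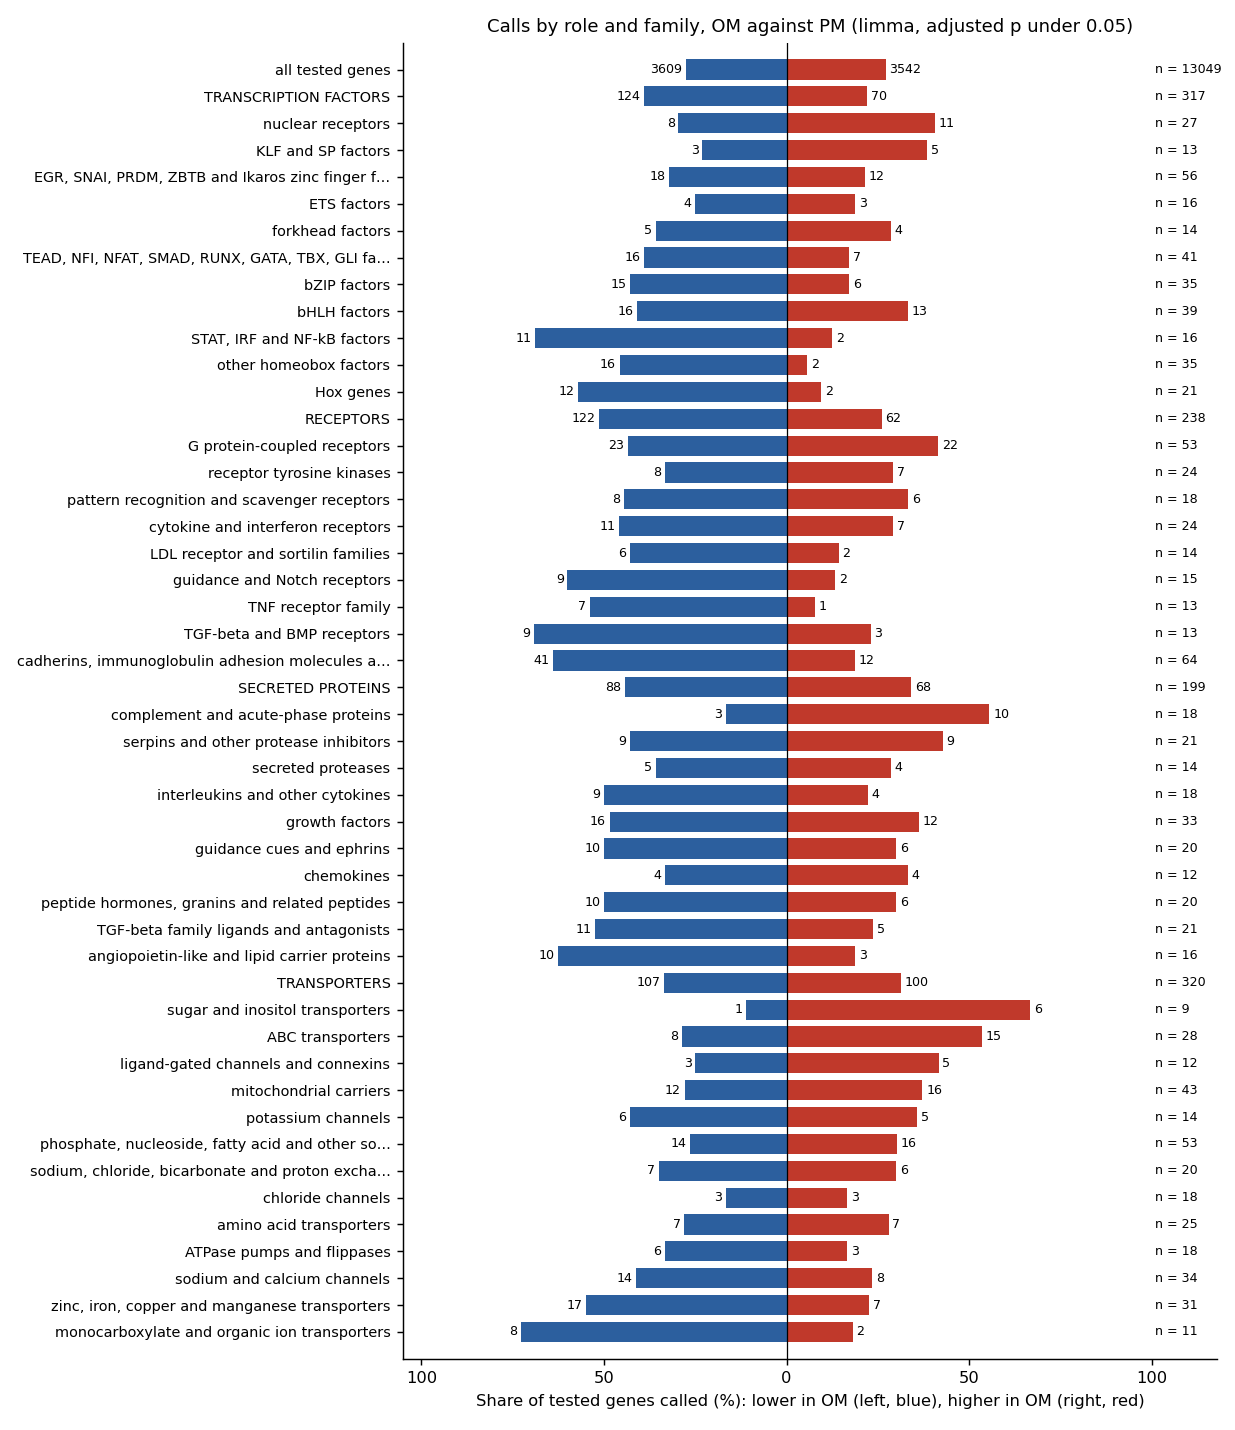
Share of tested genes called higher (right) or lower (left) in OM than in PM at an adjusted p of 0.05, in percent, for the families of the 4 roles with the number tested at the right edge, the number called at each bar's end, and all tested genes (27.1% higher, 27.7% lower) as the first bar. Cadherins and other adhesion molecules, Hox genes and transforming growth factor β (TGF-β) receptors lie mostly on the lower side, and sugar transporters mostly on the higher side.

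The largest changes named in each role were picked among genes whose groups did not overlap, so the gap between their groups is set by that choice. Genes below 1 FPKM in every library of 1 medium, such as Serpina3n in PM and Oxtr in OM, passed the filter only through other libraries. The gap of such genes is set in part by that filter. Among transcription factors, lipid-sensing nuclear receptors and several mesenchymal factors rose, while tendon and homeobox factors fell. Klf13, a Krüppel-like zinc finger factor (ENSMUSG00000052040, chromosome 7, 63886351 to 63938915, mm10), had the largest rise among transcription factors outside the 4 sets with at least 5 FPKM in the higher group and groups apart, from 3.22 ± 0.112 to 17.6 ± 1.08 FPKM. Its libraries were at 3.34, 3.16 and 3.14 FPKM in the PM libraries and 16.7, 18.8 and 17.3 in the OM libraries and did not overlap, and the log2 change was 2.14 ± 0.054 (adjusted p = 5.00e-09, limma). Rarb, the retinoic acid receptor β, was at 3.57, 3.77 and 3.21 FPKM in the PM libraries and 17.8, 18 and 17.9 in the OM libraries, again with no overlap (2.07 ± 0.062, adjusted p = 1.28e-08). Rarb shares 1793 exon bases with Top2b on the other strand, a gene at 33.4 FPKM in PM and 33.6 in OM that did not pass the test.

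Nr1h3, the oxysterol receptor LXRα, was at 1.52, 1.74 and 1.84 FPKM in PM and 9.37, 8.3 and 10.9 in OM. Pparg, the nuclear receptor that drives fat cell formation, was at 2.31, 2.03 and 2.04 FPKM in PM and 9.62, 8.76 and 8.21 in OM. Neither pair of groups overlapped, and the log2 changes were 1.96 ± 0.087 and 1.66 ± 0.064. Of 27 nuclear receptors, 11 rose and 8 fell, with a median change of 0.04. The partner receptors Rxra and Rxrb rose by less, from 21.3 ± 0.305 to 26.4 ± 1.29 FPKM and from 13.6 ± 0.496 to 16 ± 0.661 FPKM. Rara fell from 6.92 ± 0.61 to 4.86 ± 0.402 FPKM, and the thyroid hormone receptor Thra, at 48.7 ± 1.72 FPKM in PM and 48 ± 2.59 in OM, and Rarg, at 35.3 ± 1.13 FPKM in PM and 37.7 ± 1.33 in OM, did not pass.

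Fat cell genes moved in both directions beside Pparg. Of 7 tested adipocyte markers, 4 rose and 2 fell. Fabp4, a fatty acid carrier, rose from 0.432 ± 0.0861 to 15.7 ± 1.19 FPKM, and Plin4, a lipid droplet protein, from 3.78 ± 0.307 to 20.3 ± 2.17 FPKM. Lpl, lipoprotein lipase, fell from 224 ± 12.8 to 71.2 ± 2.88 FPKM, and Dgat2, which makes triglyceride, fell from 4.69 ± 0.223 to 2.93 ± 0.398 FPKM. The mature fat cell genes Plin1, Lep and Cfd were near 0 in every library, and the part of such cells in these values was not tested.

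Ebf1, an early B-cell factor also used in fat progenitors, was at 2.35, 2.2 and 1.88 FPKM in PM and 10.4, 11.1 and 10.1 in OM (1.88 ± 0.064). Twist2, a mesenchymal basic helix-loop-helix (bHLH) factor, was at 3.17, 3.2 and 2.99 FPKM in PM and 11.9, 12.8 and 12 in OM (1.68 ± 0.044). Sox5, a SOX factor of the cartilage lineage, was at 3.32, 3.46 and 3.04 FPKM in PM and 10.5, 11.6 and 9.95 in OM (1.45 ± 0.066). In all 3 genes every OM library was above every PM library. Of 4 tested SOX factors, 3 rose and none fell: Sox9, the cartilage master factor, rose from 1.16 ± 0.172 to 2.37 ± 0.243 FPKM and Sox4 from 95.1 ± 3.09 to 112 ± 7.03 FPKM. Sox12, at 1.73 ± 0.0978 FPKM in PM and 1.48 ± 0.119 in OM, did not pass. Sox6, at 0.0085 ± 0.0044 FPKM in PM and 0.0156 ± 0.0031 in OM, was below the filter. Of 8 listed cartilage cell markers, only 2 were tested. Zbtb33, a methyl-CpG-binding factor also called Kaiso, rose from 17.8 ± 0.785 to 56.9 ± 2.002 FPKM. It shares 474 exon bases with Tmem255a on the other strand, which went from 0.252 to 3.67 FPKM, and since it is not given whether strand was used in counting, their reads may be mixed.

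The largest falls of transcription factors were in tendon-lineage genes. Scx, the bHLH factor scleraxis that marks tendon progenitors (ENSMUSG00000034161, chromosome 15, 76457452 to 76459458, mm10), was at 27.9, 30.8 and 36.3 FPKM in the PM libraries and 6.5, 5.45 and 6.24 in the OM libraries. Mkx, the homeobox factor mohawk of tendon, was at 6.62, 6.95 and 7.58 FPKM in the PM libraries and 1.72, 1.4 and 1.25 in the OM libraries. Both sets of libraries were apart, and the changes were -2.20 ± 0.11 (adjusted p = 4.14e-07) and -1.71 ± 0.089 (adjusted p = 4.61e-07).

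Homeobox genes were called lower far more often than higher. Of 21 tested Hox genes, which record body position, 2 rose and 12 fell, with a median of -0.29. Hoxb9 was at 24.5, 25.1 and 24 FPKM in PM and 8.58, 10.2 and 8.58 in OM, with no overlap (-1.34 ± 0.073). Hoxc10 fell from 27 ± 2.29 to 17.1 ± 0.534 FPKM, Hoxa9 from 25 ± 0.759 to 16.3 ± 0.733 FPKM and Hoxc4 from 4.38 ± 0.436 to 2.51 ± 0.34 FPKM. Hoxa5, at 3.6 ± 0.364 FPKM in PM and 3.5 ± 0.633 in OM, and Hoxb6, at 5.64 ± 0.956 FPKM in PM and 5.9 ± 0.848 in OM, did not pass. Of the other 35 homeobox factors, 2 rose and 16 fell. Hopx, a small homeodomain protein that does not bind DNA, fell from 9.97 ± 1.33 to 4.42 ± 0.448 FPKM, while Hlx rose from 2.44 ± 0.143 to 6.14 ± 0.357 FPKM. Zeb1, at 33 ± 1.26 FPKM in PM and 34.9 ± 1.3 in OM, and Zeb2, at 12.6 ± 0.941 FPKM in PM and 12.4 ± 0.854 in OM, did not pass.

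The AP-1 factor Fosl2 was at 81.6, 83.9 and 77.2 FPKM in PM and 22, 27.1 and 25.6 in OM, with no overlap (-1.67 ± 0.070), whereas Fos, at 226 ± 10.1 FPKM in PM and 225 ± 47.7 in OM, and Junb, at 166 ± 38.8 FPKM in PM and 215 ± 78.4 in OM, did not pass. Fosl1 rose from 2.36 ± 0.493 to 4.83 ± 0.219 FPKM, but it shares 1163 exon bases with the more abundant Ccdc85b on the other strand, which went from 33.8 to 47.4 FPKM and also rose, so its reads may be mixed. Of 35 bZIP factors, the class that holds AP-1, 6 rose and 15 fell. Among 16 STAT, IRF and NF-κB factors, the effectors of cytokine and innate signals, 2 rose and 11 fell. Rel, an NF-κB subunit, fell from 2.48 ± 0.31 to 1.3 ± 0.0539 FPKM. Stat2 fell from 32 ± 7.28 to 22.7 ± 2.66 FPKM, but not past the threshold without PM replicate 1, PM replicate 2, OM replicate 1 or OM replicate 3 (adjusted p = 0.0723 to 0.113). Irf2 rose from 3.73 ± 0.666 to 6.66 ± 0.181 FPKM, and Rela, at 16.9 ± 0.404 FPKM in PM and 17 ± 1.44 in OM, did not pass. Klf2 rose from 38 ± 2.45 to 83.2 ± 7.7 FPKM beside Klf13, and Klf3, at 31.8 ± 2.61 FPKM in PM and 31.8 ± 2.21 in OM, did not pass.

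Lineage and clock factors did not move as blocks. Of 31 transcription factors of mesenchymal lineages, 12 rose and 12 fell. Runx2, the factor required for bone formation, was at 5.41, 4.32 and 3.63 FPKM in PM and 4.73, 4.98 and 4.01 in OM, with overlapping groups, and did not pass (0.04 ± 0.12, adjusted p = 0.794). Prrx1 fell from 91.3 ± 4.61 to 50.3 ± 4.03 FPKM and Prrx2 from 85.2 ± 4.41 to 45.1 ± 1.12 FPKM, both limb mesenchyme homeobox genes. Cebpd, an early fat cell factor, rose from 11 ± 1.96 to 46.2 ± 5.75 FPKM and Cebpb from 106 ± 11.1 to 196 ± 23.4 FPKM. Cebpd shares 562 exon bases with Spidr on the other strand, which also rose, so part of its reads is uncertain.

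Bone markers were few: of 6 tested, 3 rose and 1 fell. Spp1, osteopontin, rose from 16.7 ± 3.99 to 82.9 ± 15.7 FPKM, and Alpl, the alkaline phosphatase of mineralising cells, rose from 7.02 ± 0.239 to 9.82 ± 0.738 FPKM. Col1a1, the main bone collagen chain, fell from 98.6 ± 8.1 to 29.9 ± 3.31 FPKM. The osteoblast genes Sp7, Bglap and Ibsp were near 0 in both media.

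Of 14 circadian clock factors, 6 rose and 7 fell. Arntl, which codes for the activator BMAL1, rose from 5.6 ± 0.338 to 13.5 ± 0.848 FPKM, and the repressors Cry1 and Cry2 rose from 7.46 ± 0.212 to 10.4 ± 0.621 FPKM and from 10.3 ± 0.642 to 19.1 ± 0.904 FPKM. Nr1d2, the nuclear repressor REV-ERBβ, fell from 22.2 ± 1.11 to 8.88 ± 0.169 FPKM. Dbp and Tef, output factors of the clock, fell from 8.53 ± 0.264 to 4.29 ± 0.196 FPKM and from 34.6 ± 0.826 to 21.7 ± 0.966 FPKM, and Bhlhe40 fell from 25.8 ± 2.43 to 12.2 ± 2.72 FPKM. Dbp shares 539 exon bases with Sphk2 on the other strand, which was at 6.98 FPKM in PM and 7.42 in OM. Sphk2 did not pass the test, and reads of Dbp may be mixed with it. Clock itself fell from 11.9 ± 0.464 to 9.08 ± 0.473 FPKM. A single time point gives no phase.

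**Figure D2:**
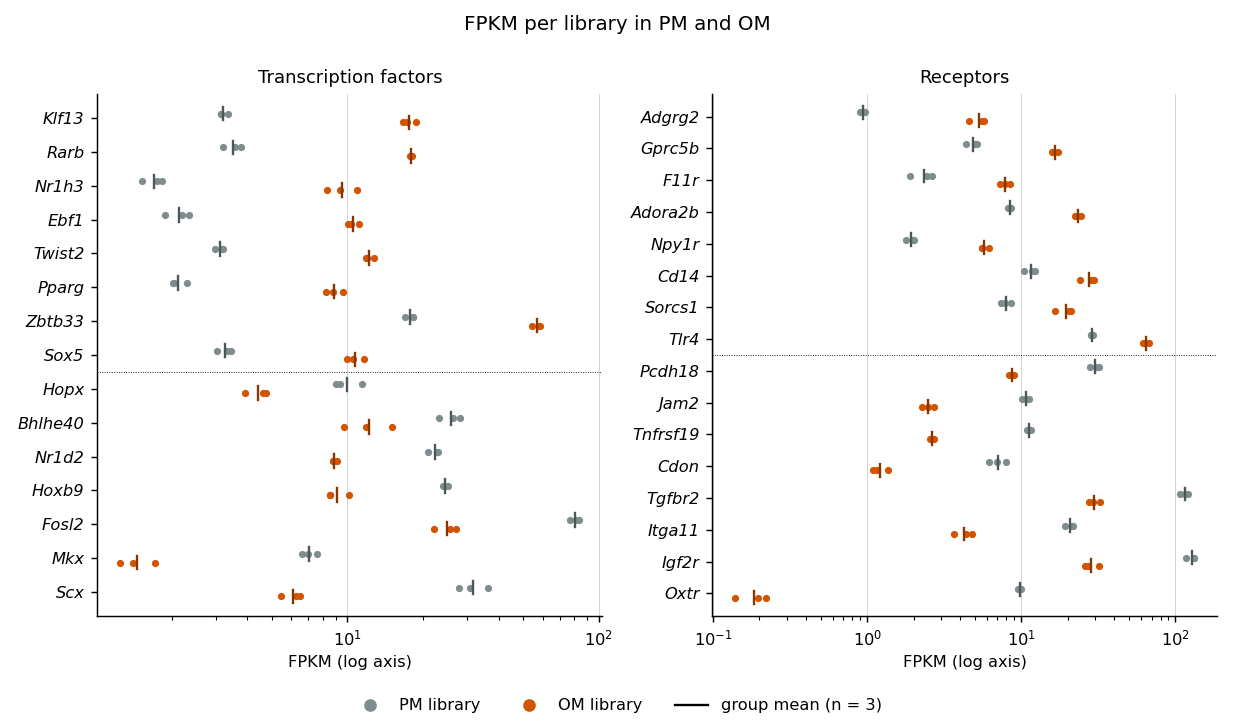
FPKM of up to 8 of the largest rises and falls each (above and below the dotted line) among transcription factors (left) and receptors (right), on a log axis; each point is 1 library, grey for PM and orange for OM, and the bar is the mean of 3 libraries. Genes were picked among those whose groups did not overlap, and Oxtr lies between 9.57 and 9.93 FPKM in PM and below 0.22 in OM.

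Receptors that fell included the oxytocin receptor, Igf2r, TGF-β receptor 2 and many adhesion molecules, and several G protein-coupled receptors rose. Oxtr, the oxytocin receptor (ENSMUSG00000049112, chromosome 6, 112473683 to 112489943, mm10), was at 9.84, 9.93 and 9.57 FPKM in the PM libraries and 0.196, 0.219 and 0.14 in the OM libraries. The libraries of the media lay far apart, and the change was -3.19 ± 0.064 (adjusted p = 1.12e-09, limma). Adora2b, the low-affinity adenosine receptor, was at 8.41, 8.24 and 8.63 FPKM in PM and 22.3, 23 and 24.3 in OM (1.36 ± 0.047). Npy1r, a neuropeptide Y receptor, was at 2.01, 1.79 and 1.98 FPKM in PM and 5.59, 6.15 and 5.54 in OM (1.21 ± 0.061). Both were higher in every OM library. Gprc5b, an orphan receptor, rose from 4.83 ± 0.414 to 16.4 ± 0.807 FPKM, and the adhesion receptor Adgrg2 from 0.94 ± 0.0321 to 5.31 ± 0.621 FPKM. Of 53 G protein-coupled receptors, 22 rose and 23 fell, with a median of 0.04, and Gpr137, at 9.91 ± 0.836 FPKM in PM and 9.76 ± 0.389 in OM, did not pass.

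Receptors for TGF-β and bone morphogenetic proteins (BMPs) were mostly lower. Tgfbr2, the type 2 receptor that binds TGF-β, was at 121, 116 and 108 FPKM in the PM libraries and 29.2, 32.3 and 27.5 in the OM libraries. All OM libraries were under all PM libraries (-1.92 ± 0.066, adjusted p = 3.30e-08). Of 13 tested members, 3 rose and 9 fell, with a median of -0.42. Acvr1, a BMP and activin receptor, fell from 10 ± 1.28 to 5.9 ± 0.182 FPKM. Rgma, a BMP co-receptor, fell from 12.4 ± 0.0869 to 6.63 ± 0.658 FPKM. Acvr1b, at 2.72 ± 0.5003 FPKM in PM and 2.9 ± 0.212 in OM, did not pass.

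Adhesion molecules made up much of the fall in receptors. Of 64 tested cadherins, immunoglobulin adhesion molecules and integrins, 12 rose and 41 fell, with a median of -0.46. Itga11, the collagen-binding integrin α chain of fibroblasts, was at 21.7, 21.2 and 19.3 FPKM in PM and 4.39, 4.78 and 3.64 in OM, with no overlap (-2.05 ± 0.084). Jam2, a junction adhesion molecule, fell from 10.7 ± 0.547 to 2.48 ± 0.219 FPKM, and Pcdh18, a protocadherin, from 30 ± 2.19 to 8.69 ± 0.341 FPKM. F11r, the related junction molecule JAM-A, rose from 2.33 ± 0.378 to 7.87 ± 0.567 FPKM. Vcam1, at 11.4 ± 0.157 FPKM in PM and 10.9 ± 0.555 in OM, and Nectin2, at 11.6 ± 0.526 FPKM in PM and 11.8 ± 0.92 in OM, did not pass. Cdon, a cell-surface co-receptor for hedgehog ligands, was at 7.94, 6.99 and 6.13 FPKM in PM and 1.15, 1.36 and 1.09 in OM, with no overlap. Its relative Boc fell from 8.24 ± 0.762 to 4.51 ± 0.517 FPKM, and of 15 guidance and Notch receptors 2 rose and 9 fell.

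Igf2r, which binds mannose-6-phosphate and clears insulin-like growth factor 2, was at 133, 132 and 117 FPKM in the PM libraries and 25.9, 31.9 and 26.9 in the OM libraries (-2.14 ± 0.079, adjusted p = 5.23e-08). The name pattern placed it with the receptor tyrosine kinases, although it has no kinase. Airn, a non-coding RNA from the other strand of the Igf2r locus, went from 12.9 ± 1.64 to 2.81 ± 0.819 FPKM and fell too (-1.89 ± 0.14), and it shares no annotated exon base with Igf2r. Of the 24 members of that family 7 rose and 8 fell. Epha7, an ephrin receptor, rose from 1.08 ± 0.166 to 3.31 ± 0.319 FPKM, and Tyro3 fell from 3.36 ± 0.0479 to 1.27 ± 0.182 FPKM. Pdgfra, at 137 ± 9.27 FPKM in PM and 125 ± 8.85 in OM, did not pass, but did so without PM replicate 3 (adjusted p = 0.0341) or without OM replicate 2 (adjusted p = 0.0389).

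Hormone and cytokine receptors fell in part. Ghr, the growth hormone receptor, fell from 144 ± 6.44 to 68.4 ± 1.18 FPKM, and Il4ra, the interleukin 4 receptor chain, from 6.74 ± 0.58 to 3.15 ± 0.147 FPKM. Il1rap, the accessory chain of the interleukin 1 receptor, rose from 6.56 ± 0.563 to 12.9 ± 0.907 FPKM. Of 24 cytokine receptors, 7 rose and 11 fell. Of 13 tumour necrosis factor (TNF) receptors, 1 rose and 7 fell: Tnfrsf1b, TNF receptor 2, rose from 7.84 ± 0.892 to 16.6 ± 0.759 FPKM, while Tnfrsf19 fell from 11.2 ± 0.332 to 2.64 ± 0.0865 FPKM and Tnfrsf1a, at 40 ± 3.22 FPKM in PM and 40.7 ± 1.33 in OM, did not pass.

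Tlr4 and its co-receptor gene Cd14 both rose. Tlr4, the receptor for bacterial lipopolysaccharide, was at 28.4, 28.4 and 29.4 FPKM in the PM libraries and 67.3, 61.3 and 63.4 in the OM libraries (1.13 ± 0.043). Cd14, its co-receptor, was at 10.4, 12.3 and 11.7 FPKM in the PM libraries and 28.5, 24.1 and 29.5 in the OM libraries (1.18 ± 0.093). Neither overlapped between the media. Cd14 is also a macrophage marker, and in the same libraries Cd68 fell from 3.19 ± 0.197 to 2.03 ± 0.0066 FPKM and Lyz2, which has a near copy in Lyz1, from 4.04 ± 0.704 to 0.41 ± 0.148 FPKM, with Adgre1, Ptprc and C1qa at or near 0. Of 18 pattern recognition and scavenger receptors, 6 rose and 8 fell, and Tlr1, at 6.93 ± 0.641 FPKM in PM and 7.2 ± 0.316 in OM, did not pass. Among lipoprotein receptors, Vldlr fell from 45.8 ± 1.88 to 20.6 ± 0.339 FPKM and Sort1, the sorting receptor sortilin, from 3.04 ± 0.237 to 0.616 ± 0.0618 FPKM. Sorcs1 rose from 7.93 ± 0.594 to 19.3 ± 2.37 FPKM, and Lrp1, at 102 ± 22.3 FPKM in PM and 94.2 ± 18.9 in OM, did not pass.

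**Figure D3:**
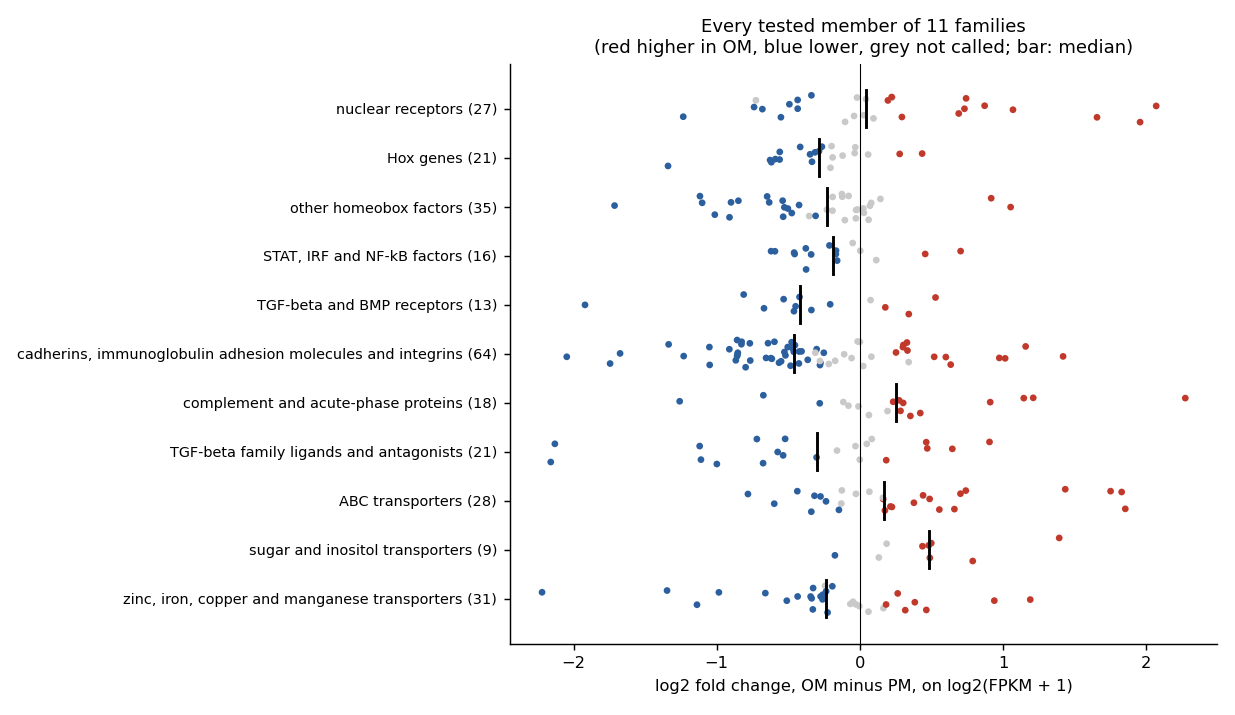
Log2 change, OM minus PM, on log2(FPKM + 1), of every tested member of 11 families (number in brackets); each point is a gene, red where called higher, blue where called lower and grey where not called, and the bar is the family median. Most adhesion molecules and Hox genes lie left of 0, with medians of -0.46 and -0.29, and most sugar transporters lie right of 0, with a median of 0.48.

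Secreted proteins had the largest changes of the 4 roles. Igfbp3, which carries insulin-like growth factors in serum and around cells, was at 1.58, 1.84 and 1.997 FPKM in the PM libraries and 60, 60.9 and 57 in the OM libraries. Serpina3n, a serine protease inhibitor, was at 0.639, 0.645 and 0.852 FPKM in the PM libraries and 22.1, 21.7 and 19.5 in the OM libraries. Itih2, an inter-α-trypsin inhibitor heavy chain that binds hyaluronan, was at 5.48, 5.43 and 4.98 FPKM in the PM libraries and 73.9, 78.8 and 70 in the OM libraries. Every OM library was above every PM library in all 3, with changes of 4.43 ± 0.063, 3.69 ± 0.073 and 3.58 ± 0.055 and adjusted p-values of 1.80e-10, 1.05e-09 and 2.91e-10 (limma). Serpina3n belongs to a cluster of near-identical genes, so its reads may be shared. It was below 1 FPKM in every PM library and so was tested only because of its level in other libraries.

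The insulin-like growth factor carriers mostly rose while the ligand fell. Of 5 tested carriers, 4 rose and 1 fell. Igfbp4 rose from 62.4 ± 2.63 to 158 ± 10.4 FPKM and Igfbp7 from 179 ± 7.3 to 332 ± 10.5 FPKM, and Igfbp2 fell from 2.63 ± 0.168 to 0.43 ± 0.0933 FPKM. Igf1 fell as given above.

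Proteins of complement and the acute phase were higher in most cases. Of 18 tested, 10 rose and 3 fell, with a median of 0.25. C3, the central complement protein, was at 24.3, 28.4 and 21.7 FPKM in the PM libraries and 112, 131 and 127 in the OM libraries, with no overlap (2.27 ± 0.097). Cp, the copper-binding ferroxidase ceruloplasmin, rose from 30.9 ± 1.9 to 72.8 ± 3.02 FPKM. F3, tissue factor, which starts coagulation, fell from 15.9 ± 1.2 to 6.07 ± 0.627 FPKM. Thbd, at 2.6 ± 0.0685 FPKM in PM and 2.41 ± 0.218 in OM, did not pass.

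Of 12 tested chemokines, 4 rose and 4 fell, or 3 and 5 when libraries were scaled to the summed values of protein-coding genes. Cxcl1, a neutrophil-attracting chemokine, was at 5.06, 9.61 and 10.2 FPKM in PM and 25.3, 35.3 and 53.3 in OM. Cxcl5, another of that kind, was at 0.804, 1.38 and 0.962 FPKM in PM and 14, 15 and 14.6 in OM. Ccl8 and Ccl7, which attract monocytes, were at 35.1, 36.1 and 48.8 FPKM in PM and 0.764, 0.656 and 1.09 in OM and at 105, 115 and 136 FPKM in PM and 26, 25.3 and 25.8 in OM. In none of the 4 genes did the media overlap, although the 3 libraries of each group spread widely for Cxcl1. The changes were 2.06 ± 0.28, 2.93 ± 0.094, -4.47 ± 0.14 and -2.16 ± 0.092. Ccl25, at 2.71 ± 0.34 FPKM in PM and 2.67 ± 0.59 in OM, did not pass.

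Of 18 tested cytokines, 4 rose and 9 fell, with a median of -0.15. With a filter of at least 5 FPKM only 6 were tested, of which 2 rose and 3 fell, with a median of 0.04. Il1rn, the interleukin 1 receptor antagonist, rose from 11.1 ± 0.231 to 36.4 ± 1.46 FPKM. Il33, an alarm cytokine, fell from 5.01 ± 0.807 to 1.63 ± 0.146 FPKM, and Il16 from 45.9 ± 2.91 to 22.6 ± 1.74 FPKM. Il16 shares 1202 exon bases with Stard5 on the other strand, which fell too.

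Of 20 granins, peptide hormones and related peptides, 6 rose and 10 fell. Scg2, secretogranin 2, a protein of dense-core granules, was at 579, 633 and 657 FPKM in the PM libraries and 47.4, 43.8 and 50.2 in the OM libraries. Penk, the precursor of enkephalin peptides, was at 19.6, 23.7 and 22 FPKM in the PM libraries and 1.21, 1.5 and 1.2 in the OM libraries. Qpct, a glutaminyl cyclase that modifies the ends of peptides and that the name pattern placed with secreted proteases, was at 54, 51.7 and 67.8 FPKM in the PM libraries and 2.78, 2.32 and 2.86 in the OM libraries. In these 3 the OM libraries were all lower, with changes of -3.70 ± 0.076, -3.30 ± 0.089 and -4.001 ± 0.11, with adjusted p-values of 1.26e-09, 6.50e-09 and 7.66e-09. Nppc, the precursor of C-type natriuretic peptide, went from 2.62 ± 1.1 to 0.00893 ± 0.0155 FPKM. Nucb2, at 33.3 ± 3.16 FPKM in PM and 35.3 ± 0.744 in OM, did not pass.

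Growth factors of several families fell together with Igf1. Ptn, the heparin-binding factor pleiotrophin, was at 28.2, 32.2 and 35.3 FPKM in PM and 5.38, 5.32 and 6.09 in OM, with no overlap (-2.31 ± 0.088). Hgf, hepatocyte growth factor, fell from 29 ± 1.53 to 8.63 ± 0.533 FPKM. Angpt1, the ligand of the vascular receptor Tie2, was at 2.69, 3.1 and 3.22 FPKM in PM and 13.1, 11.3 and 12.3 in OM, and rose with no overlap (1.73 ± 0.069). Of 33 growth factors, 12 rose and 16 fell, and Hdgf, at 109 ± 4.19 FPKM in PM and 108 ± 3.14 in OM, did not pass. Among 21 TGF-β family ligands and antagonists, 5 rose and 11 fell. Inhbb, the activin βB subunit, was at 16.5, 16.9 and 15.2 FPKM in PM and 2.9, 2.96 and 2.7 in OM (-2.16 ± 0.055), and Bmp4 fell from 10.5 ± 0.683 to 1.62 ± 0.181 FPKM. Bmper and Nbl1, which bind BMPs outside the cell, fell from 9.89 ± 0.926 to 4.03 ± 0.225 FPKM and from 116 ± 4.7 to 52.6 ± 0.451 FPKM. Grem1, a further BMP antagonist, was at 168 ± 8.6 FPKM in PM and 164 ± 6.88 in OM, and Inhba, the activin βA subunit, at 9.03 ± 0.796 FPKM in PM and 9.02 ± 0.855 in OM, and neither passed.

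Guidance cues and lipid carriers completed the secreted proteins. Sema3e, a semaphorin that repels vessels and axons, rose from 0.761 ± 0.166 to 5.61 ± 0.439 FPKM, while Sema3c fell from 51.3 ± 1.44 to 21.7 ± 0.501 FPKM. Efnb2, the membrane-bound ligand ephrin B2, grouped here with the guidance cues, fell from 24.6 ± 0.278 to 7.23 ± 0.563 FPKM. Of 16 lipid carriers and related proteins, 3 rose and 10 fell. Apoe, apolipoprotein E, rose from 21.1 ± 1.77 to 62.5 ± 2.93 FPKM, and Angptl7, an angiopoietin-like protein, from 139.9 ± 11.7 to 364 ± 19.5 FPKM. Pla2g12a, at 4.3 ± 0.277 FPKM in PM and 4.3 ± 0.188 in OM, did not pass.

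**Figure D4:**
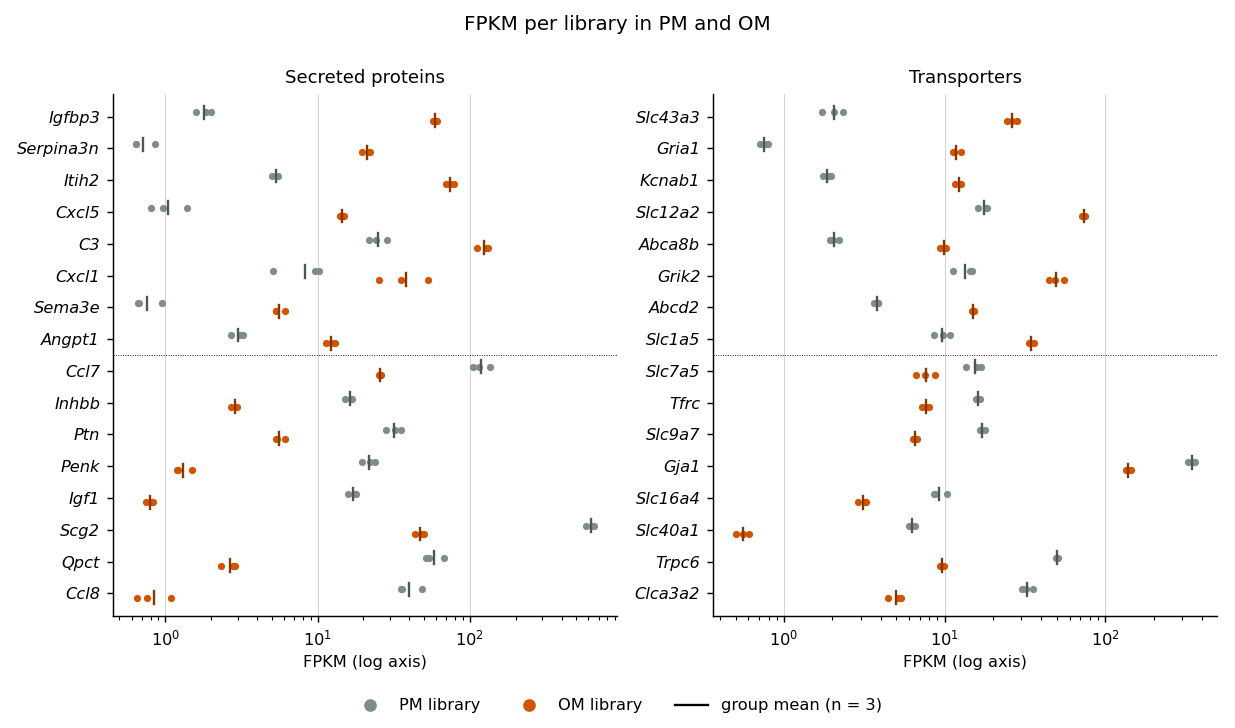
FPKM of the 8 largest rises and 8 largest falls (above and below the dotted line) among secreted proteins (left) and transporters and channels (right), on a log axis; each point is 1 library, grey for PM and orange for OM, and the bar is the mean of 3 libraries. Igfbp3 and Serpina3n lead the rises and Ccl8 and Qpct the falls on the left, and genes were picked among those whose groups did not overlap.

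Among transporters and channels, glutamate receptor subunits, a nucleobase carrier and a chloride importer rose, and an iron exporter, the calcium-permeable channel Trpc6 and the main connexin fell. Slc43a3, a purine nucleobase transporter (ENSMUSG00000027074, chromosome 2, 84936579 to 84958509, mm10), was at 2.06, 2.31 and 1.73 FPKM in the PM libraries and 26.3, 28.4 and 24.3 in the OM libraries. Its groups did not overlap, and the change was 3.17 ± 0.076 (adjusted p = 3.72e-09, limma). Slc12a2, the sodium, potassium and chloride importer NKCC1, was at 18.3, 18.1 and 16.1 FPKM in PM and 71.8, 75.2 and 73.2 in OM (2.01 ± 0.051). Slc1a5, the neutral amino acid and glutamine transporter ASCT2, was at 9.75, 10.8 and 8.53 FPKM in PM and 33.8, 36 and 33.7 in OM (1.74 ± 0.075). Both were higher in all OM libraries. Slc7a5, the large neutral amino acid exchanger LAT1, fell from 15.4 ± 1.69 to 7.64 ± 1.03 FPKM, and the glutamine transporter Slc38a2, at 120.3 ± 8.04 FPKM in PM and 127 ± 10.8 in OM, did not pass. Of 25 amino acid transporters, 7 rose and 7 fell, or 5 and 9 when scaled to protein-coding genes.

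Of 12 ligand-gated channels and connexins, 5 rose and 3 fell, or 5 each when scaled to protein-coding genes. Among them were subunits best known from neurons, of which Gria1, Gabra3 and Gabre were below 1 FPKM in PM on average and so were tested only because of their level in other libraries. Gria1, an AMPA-type glutamate receptor subunit, was at 0.789, 0.768 and 0.707 FPKM in the PM libraries and 11.4, 12.6 and 11.2 in the OM libraries. Grik2, a kainate-type glutamate receptor subunit (ENSMUSG00000056073, chromosome 10, 49094833 to 49788766, mm10), was at 14.8, 14.3 and 11.3 FPKM in the PM libraries and 48.4, 55.4 and 44.9 in the OM libraries. The groups were apart in both, with changes of 2.86 ± 0.053 and 1.81 ± 0.10 and adjusted p-values of 7.83e-10 and 7.45e-07. The GABA receptor subunits Gabra3 and Gabre rose from 0.0914 ± 0.0317 to 3.18 ± 0.204 FPKM and from 0.688 ± 0.186 to 4.78 ± 1.3 FPKM. Kcnab1, an auxiliary subunit of voltage-gated potassium channels, was at 1.88, 1.95 and 1.74 FPKM in PM and 12.4, 12.7 and 11.6 in OM, with no overlap (2.21 ± 0.053). Gja1, connexin 43, which couples stromal cells through gap junctions, was at 326, 359.7 and 355 FPKM in PM and 139, 135 and 144 in OM and fell with no overlap (-1.31 ± 0.051). P2rx4, at 7.79 ± 0.0799 FPKM in PM and 8.16 ± 0.0833 in OM, did not pass.

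The calcium-permeable channel Trpc6 was at 51, 50.3 and 49.6 FPKM in the PM libraries and 9.31, 9.89 and 9.55 in the OM libraries. All OM libraries were under all PM libraries (-2.28 ± 0.042, adjusted p = 7.83e-10). Of 34 sodium and calcium channels, 8 rose and 14 fell: Cacna1g fell from 4.31 ± 0.275 to 1.23 ± 0.148 FPKM, Pkd2 rose from 39.8 ± 3.1 to 85 ± 9.34 FPKM, and Trpm7, at 34.5 ± 2.06 FPKM in PM and 34.7 ± 2.22 in OM, did not pass. Clca3a2, a calcium-activated chloride channel regulator, was at 32.2, 35.6 and 30.5 FPKM in PM and 5.32, 5.13 and 4.43 in OM (-2.50 ± 0.076). Its relative Clca3a1 rose from 2.1 ± 0.286 to 5.41 ± 0.948 FPKM, and reads of these similar neighbours may be split between them. Clic4, at 63.1 ± 2.73 FPKM in PM and 60.8 ± 2.05 in OM, did not pass.

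Metal transporters were mostly lower and sugar transporters mostly higher. Slc40a1, ferroportin, which exports iron, was at 6.55, 6.18 and 5.97 FPKM in PM and 0.603, 0.552 and 0.501 in OM (-2.22 ± 0.077). Tfrc, the transferrin receptor, which brings iron in, was at 15.8, 16.5 and 15.9 FPKM in PM and 7.65, 7.97 and 7.24 in OM (-0.99 ± 0.053). Neither overlapped. Of 31 metal transporters, 7 rose and 17 fell, with a median of -0.24. Slc39a8, a zinc and manganese importer, rose from 2.29 ± 0.0703 to 6.5 ± 0.274 FPKM, and Slc39a14, at 14.7 ± 1.65 FPKM in PM and 16.6 ± 1.82 in OM, did not pass. Of 9 sugar and inositol transporters, 6 rose and 1 fell, but only 4 were tested with a filter of at least 5 FPKM, of which 2 rose and 1 fell. Slc2a3, the glucose transporter GLUT3, rose from 0.875 ± 0.0862 to 2.24 ± 0.109 FPKM, and Slc45a3 from 0.614 ± 0.0491 to 3.24 ± 0.234 FPKM. Both were below 1 FPKM in PM on average and so were tested only because of their level in other libraries.

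ABC transporters, pumps that use ATP, rose more often than they fell, with 15 of 28 higher, 8 lower and a median of 0.17. Of 18 other ATPase pumps and flippases, 3 rose and 6 fell. Abca8b, Abca8a and Abca6, neighbouring lipid transporters, rose from 2.05 ± 0.129 to 9.84 ± 0.454 FPKM, from 0.202 ± 0.0252 to 2.25 ± 0.193 FPKM and from 0.337 ± 0.0411 to 3.84 ± 0.294 FPKM, although similar genes such as these may share reads. Abcd2, which carries very long fatty acids into peroxisomes, rose from 3.78 ± 0.132 to 15.1 ± 0.313 FPKM. Atp1b3, a β subunit of the sodium pump, at 67.4 ± 1.59 FPKM in PM and 71.2 ± 1.46 in OM, did not pass. Among 11 monocarboxylate and organic ion transporters 2 rose and 8 fell, with Slc16a3, the lactate exporter MCT4, going from 1.19 ± 0.0663 to 0.0799 ± 0.0168 FPKM. Of 43 mitochondrial carriers, 16 rose and 12 fell, and Slc25a3, the phosphate carrier, at 90.7 ± 2.73 FPKM in PM and 96.8 ± 3.74 in OM, did not pass.

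Outside the roles and sets, the largest rise was in an enzyme of retinoic acid synthesis. Aldh1a1, which oxidises retinal (ENSMUSG00000053279, chromosome 19, 20492715 to 20643465, mm10), was at 84.6, 81 and 96.8 FPKM in the PM libraries and 1258, 1146 and 1265 in the OM libraries. The groups did not overlap (3.79 ± 0.075, adjusted p = 1.09e-09). Selenbp1, a selenium-binding protein, rose from 3.42 ± 0.285 to 56.9 ± 5.36 FPKM, Ppl, the desmosomal protein periplakin, from 1.8 ± 0.149 to 30.2 ± 1.81 FPKM, and Fmo2, a flavin monooxygenase, from 0.173 ± 0.0488 to 11.2 ± 1.37 FPKM. Tns1, which links integrins to actin, rose from 2.84 ± 0.328 to 34.6 ± 2.95 FPKM. Myoc, the secreted protein myocilin, which no name pattern put among the secreted proteins, fell from 9.56 ± 0.811 to 0.308 ± 0.0454 FPKM. Cemip, a protein that breaks down hyaluronan, fell from 34 ± 2.41 to 4.4 ± 0.615 FPKM, and Gfra1, the co-receptor for glial cell line-derived neurotrophic factor that no pattern put among the receptors, from 11.7 ± 0.805 to 0.835 ± 0.0402 FPKM.

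Inside the cell, cyclic AMP signalling genes were lower in most cases. Of 24 tested, 4 rose and 15 fell, with a median of -0.29. Pde8b, a phosphodiesterase that breaks down cyclic AMP, fell from 56.3 ± 2.31 to 26.4 ± 0.975 FPKM, and Prkacb, a catalytic subunit of protein kinase A, from 30.9 ± 1.98 to 22 ± 1.44 FPKM. Pde1a, a calmodulin-dependent phosphodiesterase, rose from 3.82 ± 0.247 to 8.03 ± 0.822 FPKM. Of 6 regulators of G protein signalling, 2 rose and 3 fell: Rgs4 rose from 2.96 ± 0.101 to 10.1 ± 0.826 FPKM and Rgs10 fell from 42.3 ± 3.18 to 9.69 ± 0.804 FPKM. Of 28 insulin and mTOR signalling adaptors, 8 rose and 12 fell, with Irs2, an insulin receptor substrate, rising from 6.25 ± 0.126 to 13.5 ± 1.09 FPKM and its relative Irs1 falling from 6.73 ± 0.726 to 4.12 ± 0.329 FPKM. Of 22 MAP kinase phosphatases and feedback inhibitors, 6 rose and 6 fell (54.5% called, beside 54.8% of all genes). Dusp6, a phosphatase of ERK, rose from 14.7 ± 1.16 to 32.2 ± 0.33 FPKM, and Socs2, which restrains growth hormone signalling, fell from 97.7 ± 4.25 to 41.7 ± 0.687 FPKM.

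CircRNAs gave few calls at their depth. Of 2898 tested, 45 passed an adjusted p of 0.05, which is 1.55%, with 21 higher (0.725%) and 24 lower (0.828%) in OM. When circRNA values were set against linear reads in place of circRNA reads, 44 passed, 36 of them higher and 8 lower. The count fell to 24 without PM replicate 1, to 17 without PM replicate 2, to 18 without OM replicate 1, to 25 without OM replicate 2 and to 17 without OM replicate 3. All 33 called circRNAs with a tested host gene had a host called in the same direction, beside 61.3% of all tested circRNAs whose host was called and 65% of those lying on the same side of 0 as the host. CircRNAs and their host are not independent, since they come from the same transcript.

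The called circRNAs of the 4 roles came from few genes. Only hosts outside the 4 sets that a name pattern or a hand-set exception gave a role are counted here. Called circles of the forkhead factor Foxo3 (circ_1320, higher) and of the receptor genes Npr3 and Lrp6 (circ_1093, circ_256 and circ_727, lower) are therefore not in these counts. The calls of circ_1320, circ_1093 and circ_727 were each lost when some single libraries were left out. Set against linear reads, circ_256 and circ_727 did not pass (adjusted p = 0.0880 and 0.396, limma). Transporter hosts had 78 tested circRNAs, of which 4 rose (5.13%), all from Grik2. Receptor hosts had 62, of which 3 fell (4.84%), from Tgfbr2, Dscam and Pcdh19. Secreted-protein hosts had 26, of which 1 rose and 1 fell (7.69%), from Vegfd and Efnb2. Transcription factor hosts had 144, of which 1 rose (0.694%), from Sox5. The junctions below are shown because the reads at these sequences are what each circRNA value counts, and they tell circles of the same gene apart. Each is the 25 bases that end the last exon, in lower case, followed by the 25 bases that start the first exon, in capitals, built from GENCODE M21 transcripts (mm10) at the deposited coordinates and not read from the libraries.
Grik2 circ_689: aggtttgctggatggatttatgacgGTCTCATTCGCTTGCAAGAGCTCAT
Grik2 circ_2440: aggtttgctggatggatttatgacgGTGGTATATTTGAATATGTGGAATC
Grik2 circ_2267: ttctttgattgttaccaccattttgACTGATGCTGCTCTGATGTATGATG
Grik2 circ_1704: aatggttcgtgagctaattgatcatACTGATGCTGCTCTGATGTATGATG
Sox5 circ_1473: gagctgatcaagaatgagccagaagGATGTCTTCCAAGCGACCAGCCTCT
Vegfd circ_1559: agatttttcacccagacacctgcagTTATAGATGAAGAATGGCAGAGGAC
Tgfbr2 circ_1220: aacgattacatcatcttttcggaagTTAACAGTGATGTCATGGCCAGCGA
Dscam circ_1560: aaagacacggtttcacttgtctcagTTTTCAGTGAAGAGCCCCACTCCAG
Pcdh19 circ_1199: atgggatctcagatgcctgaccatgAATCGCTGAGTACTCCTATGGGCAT
Efnb2 circ_1958: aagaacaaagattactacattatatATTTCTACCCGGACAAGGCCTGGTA
The first pair of Grik2 circles end with the same exon, so their lower-case parts match and their capitals differ. The second pair begin with the same exon, so the capitals match. In every one both flanks are coding sequence.

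The 4 Grik2 circles rose with their linear host. The circle of exons 5 to 7 (circ_689, chr10:49523682-49535499, minus strand, 410 bases when spliced) had 0, 5 and 3 reads in the PM libraries and 33, 29 and 30 in the OM libraries (2.74 ± 0.39, adjusted p = 0.00190, limma). The circle of exons 3 to 7 (circ_2440, chr10:49523682-49578302, 836 bases) had 4, 5 and 0 reads in PM and 37, 33 and 39 in OM (2.83 ± 0.40, adjusted p = 0.00190). The groups did not overlap in either. With only the OM and PM libraries in the fit, neither passed (adjusted p = 0.0533 for circ_689 and 0.0583 for circ_2440, limma). Of the other 2, circ_1704 (exons 8 to 11, chr10:49355909-49422672) had 2, 2 and 5 reads in PM and 23, 21 and 18 in OM and circ_2267 (exons 8 to 10, chr10:49404337-49422672) had 0, 0 and 0 reads in PM and 9, 7 and 5 in OM. The call of circ_2267 was lost when any library other than PM replicate 3 was left out (adjusted p = 0.0530 to 0.129). Summed over the 4, no PM library had more than 12 reads and no OM library fewer than 90. These circles share a host and are not replicates of each other, and 7 further tested Grik2 circles were not called.

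Circles of Sox5 and Vegfd were also higher. The Sox5 circle of exons 2 to 3 (circ_1473, chr6:144116444-144155223, minus strand, 443 bases) had 5, 5 and 5 reads in the PM libraries and 32, 25 and 27 in the OM libraries (1.75 ± 0.21, adjusted p = 0.000336). The Vegfd circle of exons 3 to 6 (circ_1559, chrX:164391602-164400858, plus strand, 637 bases), from the gene of a lymphatic vessel growth factor, had 16, 9 and 5 reads in PM and 38, 44 and 42 in OM (1.58 ± 0.31, adjusted p = 0.0159). Neither overlapped between media, and linear Vegfd rose by less, from 307 ± 2.6 to 445 ± 16.3 FPKM. The Vegfd circle did not pass without PM replicate 2 or without any 1 of the OM replicates (adjusted p = 0.0707 to 0.104).

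The circles of receptor genes and of Efnb2 were lower. The Tgfbr2 circle of exons 3 to 4 (circ_1220, chr9:116129816-116131713, minus strand, 360 bases) had 29, 28 and 32 reads in the PM libraries and 14, 13 and 15 in the OM libraries (-1.37 ± 0.23, adjusted p = 0.00585). Its linear host changed by -1.92 ± 0.066. Dscam, an adhesion molecule of neurons, gave circ_1560 (exons 2 to 3, chr16:97038898-97056765, minus strand), with 19, 18 and 31 reads in PM and 6, 4 and 6 in OM (-2.09 ± 0.40, adjusted p = 0.0159). The Efnb2 circle of exon 2 alone (circ_1958, chr8:8639206-8639489, minus strand, 284 bases) had 20, 17 and 18 reads in PM and 6, 10 and 5 in OM (-1.58 ± 0.32, adjusted p = 0.0217). In all 3 each OM library was under each PM library. The Pcdh19 circle of exons 3 to 5 (circ_1199, chrX:133625269-133681408, minus strand) had 28, 40 and 37 reads in PM and 26, 23 and 22 in OM, the closest of these groups (-0.91 ± 0.17, adjusted p = 0.0140). Leaving out 1 library took the adjusted p to as much as 0.0991 for circ_1560 (any library), 0.129 for circ_1958 (any but OM replicate 2) and 0.0759 for circ_1199 (PM replicate 2 or any 1 of OM), and the Tgfbr2 circle passed each time. Set against linear reads, the circles of Tgfbr2, Efnb2 and Pcdh19 did not pass, with adjusted p-values of 0.0520, 0.0552 and 0.178.

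The largest changes among all called circRNAs lay outside the roles. Fkbp5 circ_1228 had 0, 0 and 0 reads in PM and 50, 41 and 34 in OM, and circ_469, whose ends fall in the Sult1a1 region, had 0, 0 and 0 reads in PM and 82, 67 and 68 in OM. An entry with no gene at its ends, circ_1164, had 0, 0 and 0 reads in PM and 17, 22 and 30 in OM. All 3 passed the test, and no fold is given for them because no PM library held a read. Gas2 circ_2799, from a gene of actin-binding proteins, had 18, 32 and 16 reads in PM and 0, 4 and 3 in OM (-2.86 ± 0.60), and did not pass when any 1 library was left out (adjusted p up to 0.182). Entries that the deposited table types as intergenic were called in 12 of 161 cases (7.45%), against 1.21% of 2642 exonic and 1.05% of 95 intronic entries. Several of these join neighbouring copies, such as circ_2755 (Clca3a2 and Clca3b, 38, 40 and 35 reads in PM and 7, 8 and 9 in OM) and circ_10829 (Lyz2 and Lyz1, 4, 5 and 9 reads in PM and 0, 0 and 0 in OM), so their reads are uncertain between paralogs, and circ_10829 did not pass without PM replicate 2 or any 1 of OM (adjusted p up to 0.112). The entries with the highest level, Nfix circ_1884, Tulp4 circ_2040 and Pnp circ_33, did not pass.

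**Figure D5:**
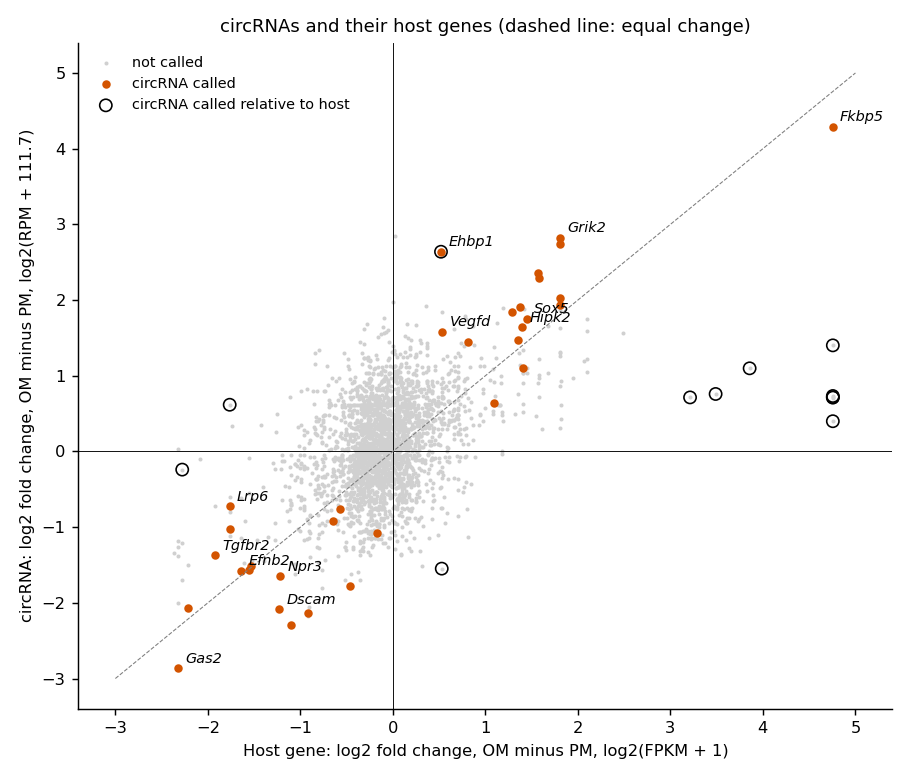
Log2 change, OM minus PM, of each tested circRNA with a tested host, on log2(RPM + 111.7), against that of its linear host on log2(FPKM + 1); grey points were not called, orange points are called circRNAs, rings mark circRNAs called relative to their host and the dashed line marks an equal change. All 33 orange points have the same sign as their host, and the 5 rings at the host change of Fkbp5 are circles with no PM read and at most 7 reads in an OM library.

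The circRNA change was also tested against that of its own host. Of 2690 circRNAs, 12 differed (0.446%), 3 higher (0.112%) and 9 lower (0.335%) relative to the host, and the count was 6 without PM replicate 1 or PM replicate 2, 7 without PM replicate 3, 5 without OM replicate 1 and 8 without OM replicate 2 or OM replicate 3. Of the 9 lower, 5 were Fkbp5 circles with no read in any PM library and 0 to 7 reads in each OM library. Trpc6 circ_6526 had 2, 3 and 3 reads in PM and 2, 3 and 3 in OM, and was called higher relative to linear Trpc6, which fell. For such counts the added constant of 111.7 RPM limits how far the fitted value of a circle can move, so a difference from a host with a large change follows from the scale, and no size is given. Ehbp1 circ_174 had 0, 0 and 0 reads in PM and 11, 14 and 10 in OM and was called higher relative to its host (adjusted p = 0.0389, limma). No size is given for it either, because no PM library held a read. The differences of circ_6526 and circ_174 did not pass when any 1 library was left out (adjusted p up to 0.151 and 0.152).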

How the data were processed

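The linear and circRNA tables of 9 libraries of total RNA were used, 3 each for PM, OM and C2S. Per the submitters' processing notes, STAR, HTSeq and RSEM were used with the mm10 build; their roles, versions and strand settings are not given in the sources used here. The authors deposited linear values whose unit was inferred from their steps as FPKM, and circRNA values scaled to the circRNA reads of each library (RPM) in which a dash was read as 0. Reads per library were estimated from those steps, which came out whole for 98.2% to 98.8% of values, and counting error was not modelled further.

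Of 31405 linear entries, 30814 matched GENCODE M21 and 26 had symbols held as dates. Genes with FPKM of 1 or more in 3 libraries were kept: the lowest deciding value kept was 1.0006 and the highest left out 0.9996. Log2(FPKM + 1), from the deposited values, was fitted with limma 3.58.1 (R 4.3.3) with all 9 libraries in 1 fit, a mean trend and Benjamini-Hochberg adjustment over all tested genes at 0.05. CircRNAs listed in 3 libraries were fitted as log2(RPM + 111.7), where the constant is a typical library's lowest non-zero value, worth 2 reads. CircRNA minus host log2 values were fitted the same way. The code was tested on simulated data. Python 3.11.15 with pandas 2.3.3 drew the tables.

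Roles came from name patterns, with 18 exceptions set by hand. Genes named are the 4 markers, the 8 largest rises and 8 largest falls per role with groups apart and at least 5 FPKM in the higher group, up to 4 members per family by size of change with the uncalled members of highest mean, and the 6 largest changes each way outside the roles and for circRNAs. A few genes that this rule names are not reported here. Other genes named (marker lists, process lists, Airn, Tmem255a, circles of role genes) were chosen after their values were seen. The members and lists were chosen with earlier results of these data known.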

Additional observations from a re-analysis of the deposited data

How the results depend on the processing

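Counts of linear calls lay between 5417 (at least 5 FPKM) and 7825 (no filter) in every alternative run, beside 7151, and between 6288 and 7180 when 1 library was left out. Scaling to protein-coding genes left 2859 higher and 4201 lower, so 40.5% of calls were higher in place of 49.5%, and moved the median of all genes from 0.003 to -0.057. Of 332 named linear genes, 2 lost and 38 gained a call under some alternative and none reversed.

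The circRNA count of 45 became 79 with entries listed in 1 library, 70 with those listed in 6, 19 with OM and PM only and 20 without the mean trend, and 17 to 45 with 1 library left out. The cause was not tested, except that fewer libraries give less information on spread. Halving or doubling the constant gave 37 and 49. Of 59 named circRNAs, 45 were called in the main fit, and 37 of these 45 lost their call under some alternative, while 2 of the uncalled gained one. The count against the host, 12, became 5 with OM and PM only, 6 with a replicate block, and 5 to 8 with 1 library left out. Both tests with edgeR were not run, because no column holds counts.

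Deviations of same-numbered OM and PM libraries correlated at -0.0243, 0.395 and 0.374, beside -0.469 to 0.187 for libraries of unlike number. OM replicate 1 correlated best with PM replicate 3 (0.182). Deviations from a group's own mean cancel within the group, so these correlations depend on each other and cannot show which libraries pair. Whether the replicate numbers mark shared cultures or batches was not tested. A replicate block gave 7378 linear and 35 circRNA calls. A median of 3 reads per listed circRNA limits what could be detected.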

Other observations

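Enzymes and binding proteins of retinoic acid, the ligand of Rarb, moved apart. This list was put together after the values of Aldh1a1 and Rarb had been seen, so its counts are a description. Of 26 genes 14 were tested, 6 rose and 5 fell, and the list summed to 215 to 230 FPKM in PM and 1331 to 1445 in OM, where Aldh1a1 made up most of the sum. Aldh1a7, a near copy of Aldh1a1 that may share its reads, rose from 3.97 ± 0.747 to 33.9 ± 2.44 FPKM, and Dhrs3, which turns retinal back to retinol, rose from 4.7 ± 0.455 to 14.1 ± 0.991 FPKM. Rdh10, which makes retinal, fell from 14.5 ± 1.15 to 9.09 ± 0.175 FPKM, and the binding proteins Crabp1 and Crabp2 fell from 7.97 ± 0.0841 to 4.09 ± 0.448 FPKM and from 5.3 ± 0.855 to 2.73 ± 0.159 FPKM. Cyp26b1, which breaks retinoic acid down, fell from 4.32 ± 0.169 to 2.51 ± 0.194 FPKM.

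Tendon genes, a list also chosen after Scx and Mkx had been seen, had 9 tested members, of which 1 rose and 5 fell. Tnc, tenascin C, fell from 31.2 ± 5.27 to 13.6 ± 2.9 FPKM and Dcn, the small proteoglycan decorin, from 88.7 ± 10.3 to 42.5 ± 2.92 FPKM, while Bgn, its relative biglycan, rose from 215 ± 10.7 to 338 ± 20.1 FPKM. The mature tendon gene Tnmd was near 0 in every library.

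Among non-coding classes of the annotation, small nucleolar RNAs, which guide the chemical marking of ribosomal RNA, had 35 rises and 5 falls among 141 tested (24.8% and 3.55%, beside 27.1% and 27.7% over all genes). Long intergenic RNAs had 65 rises and 33 falls among 191, and antisense RNAs 53 and 24 among 162. Processed pseudogenes had 112 rises and 64 falls among 643, and their reads may belong to their parent genes.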
